A study of Mus musculus with 10 samples.

Results

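The genes described here encode the enzymes and regulatory subunits that make and break down sphingolipids, 43 genes in all, chosen by name from 8 steps of the pathway. Of these, 42 had a row among the 21010 genes of the count table, and 40 passed the filter on low counts and were tested among 15728 genes. *Cers3* and *Glb1* stood below the filter, and *Cers1* was not analysed here. RNA was sequenced from kidneys of 5 KMS mice and 5 KM mice on a C57BL/6 background at 20 weeks of age. Each library was taken as 1 mouse. KMS mice carry Ksp1.3/cre, MYCfl/fl and Setd2fl/fl by their labels, and KM mice carry Ksp1.3/cre and MYCfl/fl. The Ksp (*Cdh16*) promoter drives Cre in tubular epithelium, so that both genotypes overexpress MYC there and KMS mice in addition lose *Setd2*, the gene of the methyltransferase that trimethylates lysine 36 of histone H3. KM mice served as a model of polycystic kidney disease and KMS mice as a model of clear cell renal cell carcinoma. The source of the RNA is given differently in the sources, as whole kidney tissue, as neoplastic masses in KMS and cysts in KM, or as primary tubular epithelial cells. Males and females were taken, and the labels do not give the sex of a library.

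Sphingolipids are built on a sphingoid base. Serine palmitoyltransferase (SPT) joins serine and palmitoyl-CoA at the membrane of the endoplasmic reticulum, a reductase, ceramide synthases and a desaturase turn the product into ceramide, and ceramide is then converted into sphingomyelin or into glycosphingolipids. Sphingomyelinases and lysosomal hydrolases return ceramide, ceramidases release sphingosine, and kinases, phosphatases and a lyase handle its phosphorylated form. In kidney tubules these lipids stabilise the apical membrane, and inherited defects of their lysosomal breakdown damage the kidney. The comparison of KMS with KM asks whether transcripts of this pathway differ with loss of *Setd2* in a study concerned with sphingomyelin, whose synthesis myriocin blocks at SPT.

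Total counts ranged from 16925118 to 25029639 in KMS and from 10873993 to 14564152 in KM. Levels are given as CPM (read counts scaled to a common library size with the TMM factors of edgeR). The TMM factor was 0.64 in KMS replicate 5 and between 0.94 and 1.22 in the other 9 libraries, and the mean rank correlation of KMS replicate 5 with the other KMS libraries was 0.851, against 0.913 to 0.923 for the rest of KMS and 0.934 to 0.958 within KM. Reads of 4 Y-linked genes summed to 0.70, 1.33, 0, 126 and 23.2 CPM in KMS replicates 1 to 5 and to 461, 442, 67.7, 0 and 183 CPM in KM replicates 1 to 5, so that libraries with few or no Y-linked reads were more frequent in KMS. *Setd2* itself ranged from 28.2 to 89.0 CPM in KMS and from 62.6 to 73.3 CPM in KM. The count spans the whole gene and does not show the loss of the floxed part. Markers of tubule epithelium summed to 1154 to 1894 CPM in KMS and 1055 to 1719 CPM in KM. None of these 5 listed genes was at 0. Proximal tubule markers summed to 2199 to 12116 CPM in KMS and 5252 to 7652 CPM in KM, with 4 of 8 genes higher in KMS. Thick limb and distal tubule markers summed to 3138 to 5514 CPM in KMS and 1155 to 8773 CPM in KM, 4 of 6 higher. Collecting duct markers summed to 271 to 666 CPM in KMS and 329 to 996 CPM in KM, with 5 of 6 genes lower in KMS. Podocyte markers summed to 192 to 1734 CPM in KMS and 133 to 1244 CPM in KM.

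Most transcripts of the pathway differed little between KMS and KM. By edgeR's quasi-likelihood test, 0 of the 40 tested members were called at a false discovery rate under 0.05 with a fold change of more than 1.5 in either direction, where 0.102% of all tested genes (16 of 15728) were called. The unadjusted p was under 0.05 for 4 members, *Smpd2* higher in KMS and *Sptssb*, *Cers4* and *Smpdl3b* lower. That is 10% of the members in both directions together, against 19.5% of all tested genes (3062 of 15728). Of all tested genes, 10.8% were higher and 8.62% lower at this p. A positive log2 fold change was found for 20 members and a negative one for 20 (14 and 26 with upper-quartile factors, which moved the median of all tested genes to -0.09), with a median of 0.01 against 0.06 over all tested genes. The median size of the log2 fold change regardless of sign was 0.23 for the members and 0.40 over all tested genes, and 32 of the 40 members, against 64.5% of all tested genes, stayed within a change of 1.5-fold. The members were not matched to the other genes by level of expression in these comparisons. In bulk RNA, fewer cells of a type and less RNA per cell cannot be told apart.

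**Figure D1:**
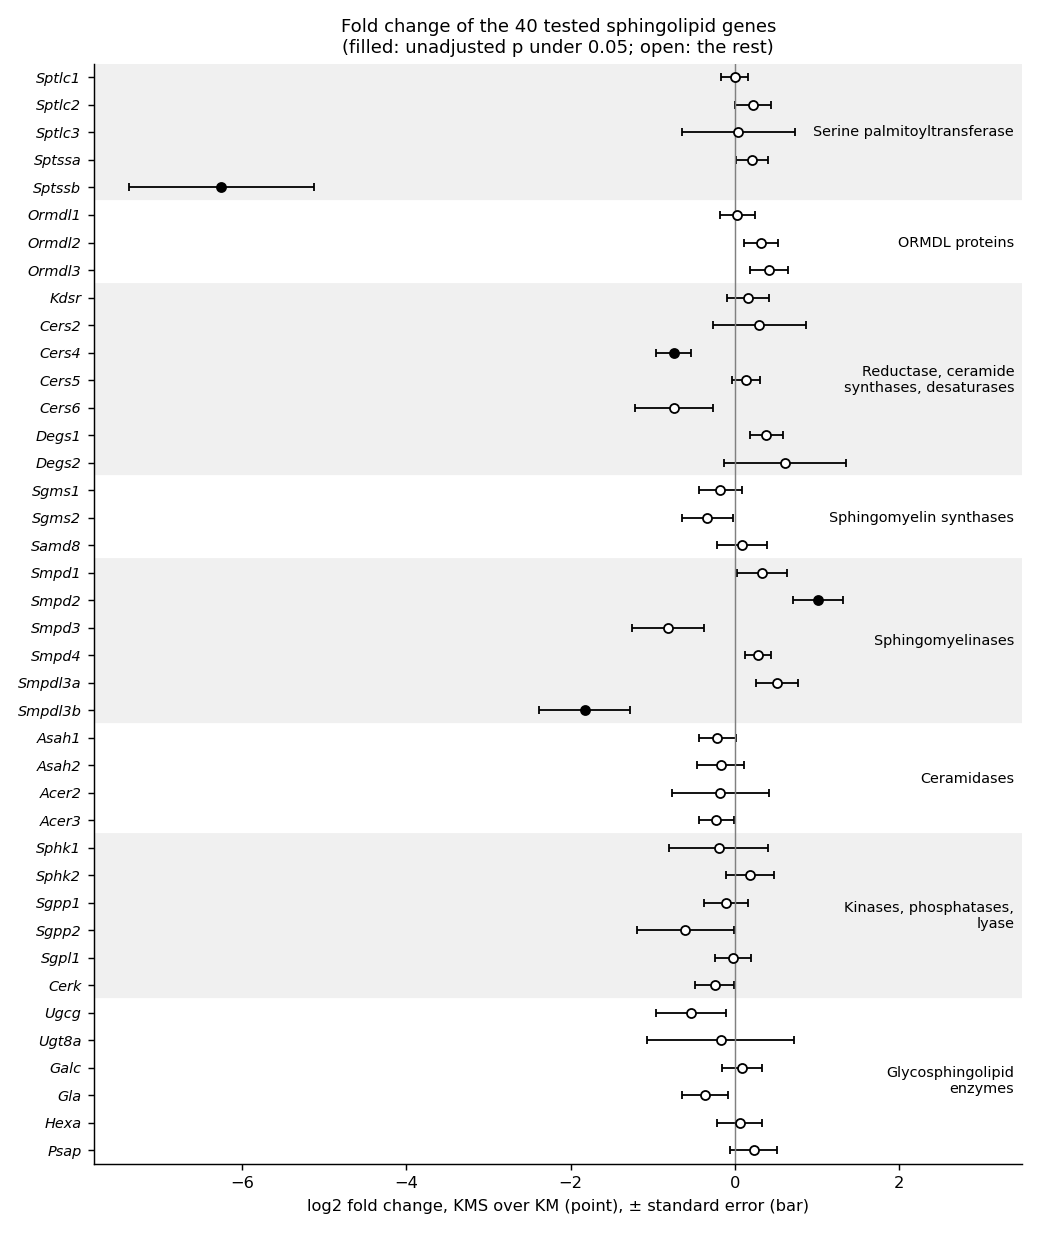
Log2 fold change of KMS over KM (point) and its standard error (bar) for the 40 tested members, by pathway step, with n = 5 libraries per genotype. Filled points have an unadjusted p under 0.05. Most points lie near 0, *Sptssb* stands far to the left at -6.25, and *Smpd2* lies farthest to the right at 1.01.

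The call for individual members depended on the tool. DESeq2 on the same counts called 4 of the 41 members with an adjusted p, all lower in KMS, namely *Sptssb*, *Cers3*, *Cers4* and *Smpdl3b*. Over all genes with an adjusted p from DESeq2, 4.07% were called lower and 1.27% higher. *Sptssb* passed the 5% threshold of DESeq2 in 10 of 10 repeats that left out each library in turn, *Cers3* and *Smpdl3b* in 8 of 10 and *Cers4* in 5 of 10. Limma-voom called 0 members. No reading of *Sptssb* by edgeR, DESeq2 or limma-voom put it higher in KMS.

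The promoters of the 4 members with an unadjusted p under 0.05 by edgeR are shown because these genes had the lowest p in that fit, and because the transgene shared by KMS and KM is MYC, which binds the E-box. Each runs from 250 bases before to 50 bases after a RefSeq transcription start in GRCm38.p6, in the direction of transcription, and capitals mark the E-box CACGTG and the GC box GGGCGG on either strand. The windows lie at chr3:69859845-69860144 on the minus strand (*Sptssb*), chr8:4493155-4493454 on the plus strand (*Cers4*), chr4:132757122-132757421 on the minus strand (*Smpdl3b*) and chr10:41490291-41490590 on the minus strand (*Smpd2*).
Sptssb: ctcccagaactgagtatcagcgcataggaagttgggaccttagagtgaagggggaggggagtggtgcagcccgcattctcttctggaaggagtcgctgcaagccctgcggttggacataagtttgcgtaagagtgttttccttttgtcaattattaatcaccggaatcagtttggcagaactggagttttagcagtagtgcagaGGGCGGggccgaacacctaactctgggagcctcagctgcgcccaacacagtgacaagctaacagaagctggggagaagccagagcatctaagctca
Cers4: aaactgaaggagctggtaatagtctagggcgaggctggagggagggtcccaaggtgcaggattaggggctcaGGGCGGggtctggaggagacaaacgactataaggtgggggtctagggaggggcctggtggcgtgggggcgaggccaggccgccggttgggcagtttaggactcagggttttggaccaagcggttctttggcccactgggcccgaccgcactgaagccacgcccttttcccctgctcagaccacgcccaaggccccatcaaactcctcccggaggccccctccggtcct
Smpdl3b: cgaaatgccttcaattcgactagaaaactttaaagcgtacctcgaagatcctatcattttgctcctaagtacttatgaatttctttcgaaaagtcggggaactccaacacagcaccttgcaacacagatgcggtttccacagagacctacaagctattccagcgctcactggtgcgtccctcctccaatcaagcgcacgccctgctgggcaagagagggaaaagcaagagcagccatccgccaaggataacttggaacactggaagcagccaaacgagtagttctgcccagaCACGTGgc
Smpd2: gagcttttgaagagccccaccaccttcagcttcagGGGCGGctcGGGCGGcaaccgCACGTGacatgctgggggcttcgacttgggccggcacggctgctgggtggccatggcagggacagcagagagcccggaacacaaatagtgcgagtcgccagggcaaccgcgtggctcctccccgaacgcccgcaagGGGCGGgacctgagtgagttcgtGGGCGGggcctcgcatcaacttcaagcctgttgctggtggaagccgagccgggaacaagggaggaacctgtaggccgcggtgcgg
*Smpdl3b* held 1 E-box, which began 42 bases after the start, and *Smpd2* held 1 beginning 194 bases before it, whereas *Sptssb* and *Cers4* held 0. GC boxes numbered 4 in *Smpd2*, 1 in *Sptssb*, 1 in *Cers4* and 0 in *Smpdl3b*. The GC content was 67.0% in *Smpd2*, 64.3% in *Cers4*, 52.7% in *Sptssb* and 50.0% in *Smpdl3b*, against a median of 52.7% over the 32851 promoters of the table. Among the 40 members with a promoter in the table, 10 had the E-box in at least 1 promoter (25.0%), against 8.09% of 27025 genes, and 31 had the GC box (77.5%), against 38.2%. The 27025 genes were not matched to the members by expression, GC content or number of promoters, and an excess of either motif was not tested. The 10 were *Cers2*, *Cers6*, *Degs1*, *Gla*, *Glb1*, *Sgms2*, *Sgpp2*, *Smpd2*, *Smpdl3b* and *Sphk1*. Both genotypes overexpress MYC, and its binding to these promoters was not measured.

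*Sptssb* encodes a small activating subunit of SPT, the alternative to the subunit of *Sptssa*, and shifts the enzyme towards longer acyl-CoA substrates. Read counts of *Sptssb* were 1, 3, 0, 0 and 7 in KMS replicates 1 to 5 and 69, 383, 118, 11 and 127 in KM replicates 1 to 5. In CPM these were 0.047, 0.17, 0, 0 and 0.44 CPM in KMS and 5.14, 29.0, 6.99, 0.76 and 9.22 CPM in KM. Every KMS library lay below every KM library, which over all tested genes held for 2.94% in this direction, and the lowest KM library was replicate 4. A count of 0 allows a level of up to 0.177 CPM in KMS replicate 3 and 0.165 CPM in KMS replicate 4 (3 reads, counting error only). *Sptssb* averaged 0.13 ± 0.18 CPM in KMS and 10.2 ± 10.9 CPM in KM (SD, n = 5 each), a log2 fold change of -6.25 (SE 1.13), with an adjusted p of 0.0736 from edgeR and of 5.32e-08 from DESeq2. It ranked 29 by p among all 15728 tested genes. The gene lies at chr3:69819538-69861363 on the minus strand, and no exon of another annotated gene overlaps its exons.

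Results for *Sptssb* rested on few reads in KMS and moved with several measures of the libraries. Leaving out each library in turn gave log2 fold changes between -7.35 and -5.36 and adjusted p-values from edgeR between 0.0470 and 0.184, the lowest of them without KM replicate 4, where the gene was called. KM replicate 4, the KM library with 0 reads of the Y-linked genes, had the lowest KM level, and with the Y-linked level as a covariate the log2 fold change was -4.29 (SE 1.06, adjusted p of 0.219 from edgeR). KMS replicates 4 and 5, which had Y-linked reads, stood at 0 and 0.44 CPM. Marker lists of other cells also moved with genotype. T and NK cell markers summed to 1.54 to 10.3 CPM in KMS and 18.7 to 39.7 CPM in KM, with negative log2 fold changes for 7 of 7 tested genes. Fibroblast markers summed to 147 to 257 CPM in KMS and 307 to 647 CPM in KM, with negative values for 7 of 7. Proliferation genes summed to 11.8 to 48.8 CPM in KMS and 45.9 to 131 CPM in KM, with negative values for 6 of 6. Macrophage markers, negative for 10 of 10, overlapped between the groups, at 156 to 385 CPM in KMS and 271 to 934 CPM in KM. B and plasma cell markers summed to 47.2 to 190 CPM in KMS and 67.8 to 531 CPM in KM, with negative values for 6 of 6. No listed marker was at 0 in all libraries. The part of these cells and of sex in the level of *Sptssb* or of any other member was not tested.

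**Figure D2:**
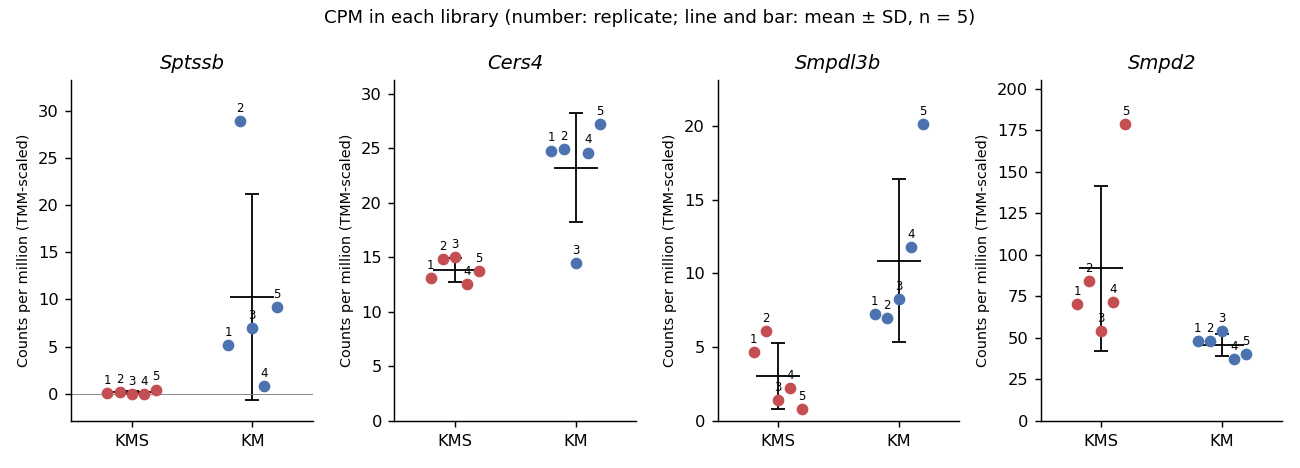
TMM-scaled CPM of the 4 members with an unadjusted p under 0.05 in each KMS (left) and KM (right) library. Numbers give the replicate, and the line and bar show the mean ± SD of 5 libraries. *Sptssb* and *Smpdl3b* separate the genotypes, *Cers4* overlaps through KM replicate 3, and *Smpd2* has its highest value in KMS replicate 5.

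The other subunits of SPT did not share this difference. *Sptlc1*, which encodes the subunit common to all forms of the enzyme, had 51.0, 63.0, 63.0, 68.9 and 48.6 CPM in KMS replicates 1 to 5, against 62.0, 60.0, 62.5, 52.6 and 57.9 CPM in KM replicates 1 to 5. Its log2 fold change was -0.002 (SE 0.17, adjusted p of 0.996 from edgeR), the nearest to 0 of the members of this step. *Sptlc2*, the catalytic subunit, averaged 130 ± 33.0 CPM in KMS and 111 ± 16.2 CPM in KM, a log2 fold change of 0.22 (SE 0.22, adjusted p of 0.605 from edgeR). *Sptlc3*, the alternative catalytic subunit, was low, at 0.56, 0.63, 6.44, 2.31 and 0.62 CPM in KMS and 1.56, 2.87, 1.60, 2.68 and 1.52 CPM in KM. KMS replicate 3 alone stood above all KM libraries, and the log2 fold change of 0.04 (SE 0.68) was -0.98 without it. *Sptssa* averaged 32.8 ± 6.14 CPM in KMS and 28.5 ± 3.91 CPM in KM, a log2 fold change of 0.20 (SE 0.20, adjusted p of 0.594 from edgeR). Per kilobase of exon, *Sptssa* made up 99.7 ± 0.485% of the small subunit transcripts in KMS and 80.0 ± 15.3% in KM (SD, n = 5 each), and *Sptssb* the rest. The share of *Sptssb* averaged 0.329% in KMS, where it was at most 1.16%, and reached 43.1% in KM replicate 2.

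ORMDL proteins bind SPT and restrain it when ceramide is plentiful. All 3 of their genes had positive log2 fold changes, with *Ormdl1* turning to -0.10 under upper-quartile factors, and 0 passed the test. *Ormdl3* had 57.3, 28.0, 40.1, 28.3 and 54.3 CPM in KMS, against 30.7, 30.4, 31.0, 30.6 and 33.4 CPM in KM. The KM libraries were closely spaced, and 2 of the 5 KMS libraries lay below them. Its log2 fold change was 0.41 (SE 0.23, adjusted p of 0.346 from edgeR). *Ormdl2* averaged 43.3 ± 8.88 CPM in KMS and 34.8 ± 6.03 CPM in KM, a log2 fold change of 0.31 (SE 0.20, adjusted p of 0.412 from edgeR). Exons of *Dnajc14* on the other strand cover 66.7% of the exon bases of *Ormdl2*, and since it is not stated whether HTSeq counted by strand, this value is uncertain. *Ormdl1* was at 19.8 ± 4.57 CPM in KMS and 19.4 ± 2.22 CPM in KM, with a log2 fold change of 0.03 (SE 0.21).

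*Kdsr* encodes the reductase that forms dihydrosphingosine. Its level was 51.1, 39.8, 27.8, 35.7 and 19.6 CPM in KMS replicates 1 to 5, against 27.6, 28.9, 26.9, 33.0 and 39.0 CPM in KM replicates 1 to 5. KMS held both the highest and the lowest library. KMS over KM gave a log2 fold change of 0.16 (SE 0.25, adjusted p of 0.760 from edgeR), and without KMS replicate 1 it was -0.01.

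Among the ceramide synthases, which attach an acyl chain of a length set by the isozyme, *Cers4* had the lowest p among those tested by edgeR, where *Cers3* did not pass the filter on low counts. Its level was 13.1, 14.9, 15.1, 12.5 and 13.7 CPM in KMS, against 24.8, 25.0, 14.5, 24.6 and 27.2 CPM in KM. KM replicate 3 lay within the KMS range and the other 4 KM libraries above it. The log2 fold change was -0.74 (SE 0.22), with an adjusted p of 0.158 from edgeR and of 0.0194 from DESeq2, and -0.87 without KM replicate 3. Exons on the other strand overlap 8.97% of the exon bases of *Cers4*. *Cers6* ranged from 3.92 to 16.8 CPM in KMS and from 5.44 to 23.3 CPM in KM, with the same log2 fold change of -0.74 but an SE of 0.48 (adjusted p of 0.404 from edgeR). 

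*Cers2*, *Cers3* and *Cers5* are named outside the rule that selected genes, after their values had been seen. *Cers2*, whose product makes very long chain ceramides, had 18.8, 22.7, 33.4, 35.6 and 155 CPM in KMS, against 36.1, 32.9, 77.7, 44.1 and 25.0 CPM in KM. KMS replicate 5 was the highest of all 10 libraries, and the log2 fold change was 0.30 (SE 0.56) with it and -0.63 (SE 0.34) without it. *Cers5* averaged 43.4 ± 5.81 CPM in KMS and 39.5 ± 3.57 CPM in KM. *Cers3*, which is known for the skin and testis, had 9, 4, 0, 7 and 0 reads in KMS and 13, 36, 31, 6 and 31 reads in KM. In CPM its groups overlapped, since KMS replicate 1 stood at 0.42 and KM replicate 4 at 0.41. DESeq2 gave a log2 fold change of -2.95 (SE 0.80) for it and an adjusted p of 0.0107, and edgeR without a filter gave -2.89 and an adjusted p of 0.156. Per kilobase of exon, *Cers2* and *Cers5* together made up most of the ceramide synthase transcripts in every library. *Cers2* took 42.1 ± 18.2% in KMS and 41.8 ± 9.43% in KM, *Cers5* 49.1 ± 16.5% in KMS and 42.4 ± 6.53% in KM, and *Cers4* 4.63 ± 1.66% in KMS and 7.53 ± 2.78% in KM.

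**Figure D3:**
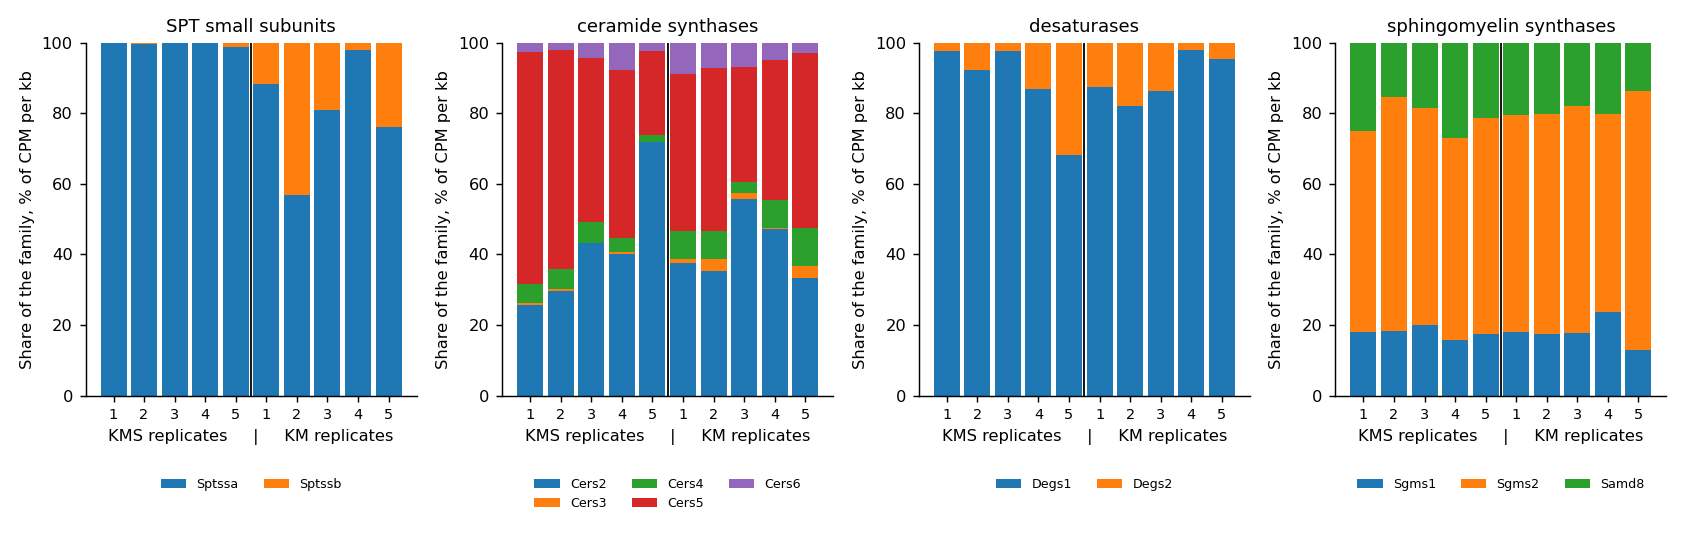
Share of each isozyme in its family per library, in percent of CPM per kilobase of exon, for SPT small subunits, ceramide synthases, desaturases and sphingomyelin synthases, with KMS replicates left and KM replicates right of the line. *Sptssb* is visible in KM and nearly absent in KMS, where its mean share was 0.329%, and KMS replicate 5 differs from the other KMS libraries in its shares of *Cers2* and *Degs2*.

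Desaturases complete ceramide. *Degs1*, the general desaturase, had 305, 267, 245, 286 and 192 CPM in KMS, against 190, 181, 178, 201 and 244 CPM in KM. The highest KM library and the lowest KMS library lay within the range of the other genotype. Its log2 fold change was 0.38 (SE 0.20, adjusted p of 0.320 from edgeR) and 0.51 without KMS replicate 5 (adjusted p of 0.186 from edgeR). *Degs2*, which also hydroxylates and forms phytoceramide, is named after its values had been seen. It had 7.01, 22.7, 6.03, 43.4 and 89.8 CPM in KMS and 27.0, 39.4, 28.3, 4.54 and 11.5 CPM in KM, and it made up 11.5 ± 12.2% of desaturase transcripts per kilobase in KMS and 10.2 ± 6.60% in KM.

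Genes of sphingomyelin synthesis from ceramide showed no call in either direction. *Sgms2*, the synthase of the plasma membrane, had 164, 139, 139, 161 and 67.5 CPM in KMS and 128, 125, 180, 131 and 281 CPM in KM. KMS replicate 5 was the lowest and KM replicate 5 the highest, while the other 8 libraries overlapped. Its log2 fold change was -0.33 (SE 0.31, adjusted p of 0.578 from edgeR). *Sgms1*, the Golgi synthase, averaged 68.0 ± 21.4 CPM in KMS and 76.8 ± 15.1 CPM in KM, a log2 fold change of -0.18 (SE 0.26, adjusted p of 0.748 from edgeR). *Samd8*, which makes ceramide phosphoethanolamine, averaged 60.7 ± 29.3 CPM in KMS and 57.0 ± 6.22 CPM in KM, a log2 fold change of 0.09 (SE 0.31, adjusted p of 0.904 from edgeR). *Sgms2* held 60.5 ± 3.85% of their transcripts per kilobase in KMS and 63.6 ± 6.36% in KM, *Sgms1* 18.0 ± 1.53% in KMS and 18.0 ± 3.92% in KM, and *Samd8* 21.5 ± 4.70% in KMS and 18.5 ± 2.87% in KM.

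Sphingomyelinases and their relatives held 2 of the 4 members with an unadjusted p under 0.05, in opposite directions. *Smpd2*, a neutral sphingomyelinase, had 70.3, 84.5, 54.2, 71.3 and 179 CPM in KMS, against 48.0, 48.0, 53.9, 37.3 and 40.3 CPM in KM. Every KMS library lay above every KM library, which held for 1.84% of all tested genes in this direction, by a margin of 54.2 against 53.9 CPM at the nearest pair. The log2 fold change was 1.01 (SE 0.31), with an adjusted p of 0.166 from edgeR and of 0.0521 from DESeq2. KMS replicate 5 contributed much of the size, for without it the value was 0.64 (SE 0.18, adjusted p of 0.143 from edgeR). The gene lies at chr10:41487172-41490370 on the minus strand, where exons of *Mical1* on the other strand cover 20.3% of its exon bases.

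*Smpdl3b* encodes a phosphodiesterase anchored at the cell surface that is known from podocytes and macrophages. It had 4.68, 6.12, 1.42, 2.20 and 0.81 CPM in KMS, against 7.22, 6.96, 8.29, 11.8 and 20.1 CPM in KM. All KMS libraries lay below all KM libraries. The log2 fold change was -1.83 (SE 0.55), with an adjusted p of 0.165 from edgeR and of 0.0204 from DESeq2, and leaving out each library in turn gave values from -2.24 to -1.48. Podocyte markers had positive log2 fold changes for 4 of 4 genes and macrophage markers negative ones for 10 of 10, and their part in the level of *Smpdl3b* was not tested. *Smpdl3a*, a secreted phosphodiesterase and one of the most abundant members, had 376, 370, 454, 607 and 322 CPM in KMS and 290, 250, 410, 267 and 275 CPM in KM. KM replicate 3 lay among the KMS libraries. The log2 fold change was 0.51 (SE 0.25, adjusted p of 0.281 from edgeR) and 0.62 without KMS replicate 5 (adjusted p of 0.233 from edgeR).

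The remaining sphingomyelinase genes are named after their values had been seen. *Smpd1*, the acid sphingomyelinase, had 57.8, 91.5, 99.8, 84.5 and 174 CPM in KMS and 89.5, 92.1, 103, 70.9 and 47.2 CPM in KM, with KMS replicate 5 the highest. *Smpd4*, another neutral sphingomyelinase, averaged 38.3 ± 4.84 CPM in KMS and 31.5 ± 1.20 CPM in KM, a log2 fold change of 0.28 (SE 0.16, adjusted p of 0.357 from edgeR). *Smpd3* was near the limit of detection, with 4 to 11 reads in KMS and 6 to 18 reads in KM.

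Ceramidases release sphingosine from ceramide, and all 4 had negative log2 fold changes between -0.23 and -0.17, with *Asah2* and *Acer2* turning positive without KMS replicate 5 and 0 past the test. *Asah1*, the lysosomal acid ceramidase and the most abundant of them, had 97.0, 167, 112, 148 and 78.8 CPM in KMS, against 131, 141, 135, 134 and 157 CPM in KM. The KMS libraries spread on both sides of the KM range. For *Asah1* the log2 fold change was -0.21 (SE 0.23, adjusted p of 0.637 from edgeR). *Asah2*, the neutral ceramidase, was at 57.5 ± 24.7 CPM in KMS and 64.9 ± 8.73 CPM in KM, a log2 fold change of -0.17 (SE 0.29, adjusted p of 0.776 from edgeR). *Acer3*, an alkaline ceramidase, was at 23.9 ± 5.21 CPM in KMS and 28.0 ± 3.54 CPM in KM, a log2 fold change of -0.23 (SE 0.21, adjusted p of 0.582 from edgeR). *Acer2*, the Golgi ceramidase, varied most of the 4, between 8.22 and 110 CPM in KMS and between 26.7 and 81.3 CPM in KM.

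Of the 6 genes that handle phosphorylated bases and ceramide, 5 had negative and 1 a positive log2 fold change (4 and 2 without KMS replicate 5, where *Sphk2*, *Sgpp1* and *Sgpl1* changed sign), and 0 passed the test. *Cerk*, the ceramide kinase, averaged 29.2 ± 8.71 CPM in KMS and 34.6 ± 5.43 CPM in KM, a log2 fold change of -0.25 (SE 0.24, adjusted p of 0.595 from edgeR). *Sgpp2*, a sphingosine 1-phosphate phosphatase, had 1.92, 3.35, 5.02, 3.63 and 13.2 CPM in KMS and 5.88, 4.84, 19.8, 7.15 and 3.41 CPM in KM. The highest library of each genotype stood apart, and the log2 fold change of -0.60 (SE 0.59, adjusted p of 0.606 from edgeR) was 0.03 without KM replicate 3 and -1.23 without KMS replicate 5. *Sphk2*, a sphingosine kinase that also works in the nucleus, averaged 57.5 ± 25.2 CPM in KMS and 50.5 ± 14.2 CPM in KM, a log2 fold change of 0.19 (SE 0.29, adjusted p of 0.761 from edgeR). Exons of *Dbp* and *Rpl18* on the other strand cover 21.9% of its exon bases. *Sphk2* supplied 86.8 ± 9.01% of sphingosine kinase transcripts per kilobase in KMS and 82.2 ± 10.5% in KM, the rest being *Sphk1* at 2.20 to 19.8 CPM in KMS and 6.05 to 24.9 CPM in KM. *Sgpl1*, the lyase that ends the pathway, ranged from 54.1 to 120 CPM in KMS and from 86.8 to 108 CPM in KM, and *Sgpp1* from 61.8 to 175 CPM in KMS and from 103 to 157 CPM in KM.

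Glycosphingolipid enzymes split evenly, with 3 positive and 3 negative log2 fold changes among 6 tested genes (1 and 5 with upper-quartile factors) and 0 past the test. *Ugcg*, the glucosylceramide synthase that opens this branch, had 38.6, 22.6, 21.0, 28.3 and 7.29 CPM in KMS and 27.3, 26.4, 19.8, 32.5 and 64.5 CPM in KM. KM replicate 5 was the highest and KMS replicate 5 the lowest, and the log2 fold change of -0.53 (SE 0.42, adjusted p of 0.506 from edgeR) was -0.15 without KM replicate 5 and -0.26 without KMS replicate 5. *Gla*, the alpha-galactosidase deficient in Fabry disease, averaged 9.36 ± 3.24 CPM in KMS and 12.1 ± 2.17 CPM in KM, a log2 fold change of -0.37 (SE 0.28, adjusted p of 0.487 from edgeR). *Psap*, whose product is cut into the saposins that assist lysosomal hydrolases, averaged 1701 ± 361 CPM in KMS and 1453 ± 373 CPM in KM, a log2 fold change of 0.23 (SE 0.29, adjusted p of 0.701 from edgeR). *Galc*, which removes galactose from galactosylceramide, was at 103 ± 27.0 CPM in KMS and 96.9 ± 22.4 CPM in KM, and *Hexa*, a subunit of beta-hexosaminidase, at 90.3 ± 30.8 CPM in KMS and 86.6 ± 21.8 CPM in KM. *Glb1*, the lysosomal beta-galactosidase, had 2, 3, 4, 7 and 236 reads in KMS and 40, 31, 21, 9 and 2 reads in KM. Nearly all of its KMS reads came from replicate 5.

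*Ugt8a*, the galactosylceramide synthase at the head of the sulfatide branch, varied widely within each genotype and is named after its values had been seen. It had 12.3, 21.5, 2.30, 115 and 29.7 CPM in KMS and 54.8, 44.2, 79.4, 2.75 and 22.4 CPM in KM. The lowest library of each genotype, KMS replicate 3 and KM replicate 4, was the library of that genotype with a sum of 0 for the Y-linked genes. These libraries also had the highest podocyte marker sums of their genotype, at 1734 CPM in KMS replicate 3 and 1244 CPM in KM replicate 4. Endothelial markers were likewise highest there, at 1049 and 950 CPM. KMS replicate 4, with the highest *Ugt8a*, had a podocyte marker sum of 1436 CPM. The mean log2 CPM of the Y-linked genes was -1.47, -1.08, -2.43, 4.96 and 2.34 in KMS replicates 1 to 5 and 6.74, 6.68, 4.08, -2.43 and 5.41 in KM replicates 1 to 5. With this level as a covariate the log2 fold change of *Ugt8a* was 1.17 (SE 0.63, adjusted p of 0.348 from edgeR), against -0.17 (SE 0.90, adjusted p of 0.936 from edgeR) without it. *Degs2* had its lowest values in the same 2 libraries, and its log2 fold change was 1.74 (SE 0.58, adjusted p of 0.219 from edgeR) with the covariate and 0.61 (SE 0.74) without it. The Y-linked level and genotype were not balanced in these libraries. Sums of the Y-linked genes above 0 ran from 0.70 to 461 CPM, so that they do not sort every library by sex. The parts of sex, of tubule segments, of podocytes and endothelium and of genotype in these levels were not tested beyond this covariate.

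**Figure D4:**
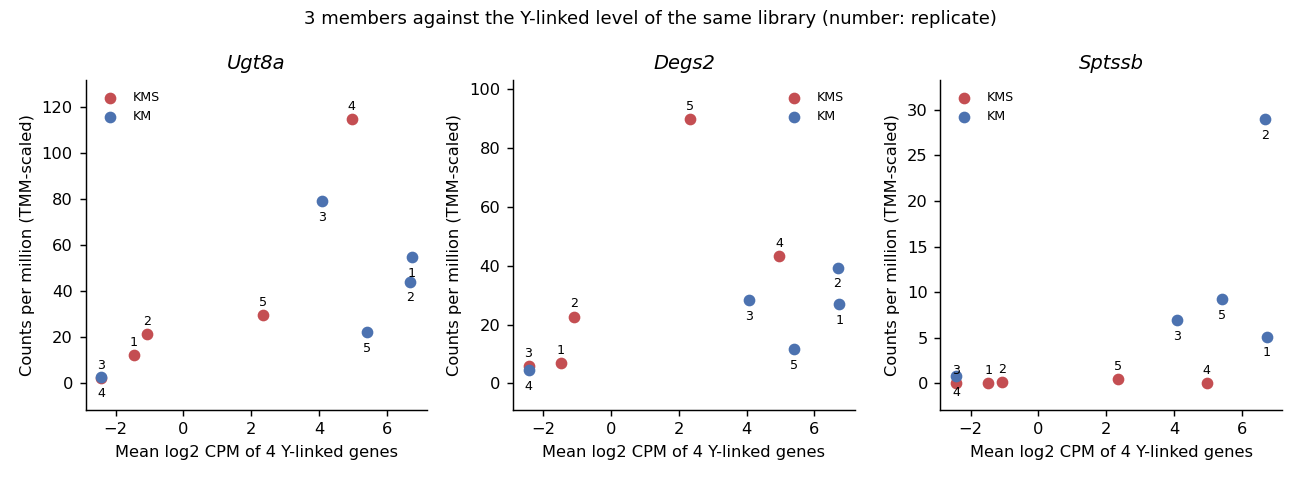
CPM of *Ugt8a*, *Degs2* and *Sptssb* (vertical axes) against the mean log2 CPM of 4 Y-linked genes (horizontal axes) in each KMS and KM library; numbers give the replicate. *Ugt8a* is below 3 CPM in the libraries at the left edge, at -2.43, whereas *Sptssb* stays at or below 0.44 CPM in all KMS libraries, including KMS replicate 4 at a Y-linked level of 4.96.

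Levels within the pathway were compared per kilobase of exon. *Psap* was the highest, at 620 ± 132 CPM per kilobase in KMS and 530 ± 136 in KM, followed by *Smpdl3a* at 206 ± 54.3 in KMS and 145 ± 31.1 in KM and *Degs1* at 100 ± 16.8 in KMS and 76.7 ± 10.5 in KM. Next stood *Hexa*, at 45.2 ± 15.4 in KMS and 43.4 ± 10.9 in KM, and *Asah1*, at 35.6 ± 10.7 in KMS and 41.2 ± 3.04 in KM. These last 2 did not differ beyond their spread. The main subunits of SPT and the reductase stood lower, with *Sptlc1* at 16.6 ± 2.45 in KMS and 16.6 ± 1.12 in KM, *Sptlc2* at 16.0 ± 4.07 in KMS and 13.7 ± 1.99 in KM, and *Kdsr* at 4.27 ± 1.47 in KMS and 3.81 ± 0.62 in KM. Among the lowest levels were those of *Cers3*, at 0.064 ± 0.062 in KMS and 0.50 ± 0.29 in KM, and of *Smpd3*, at 0.082 ± 0.029 in KMS and 0.14 ± 0.049 in KM.

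**Figure D5:**
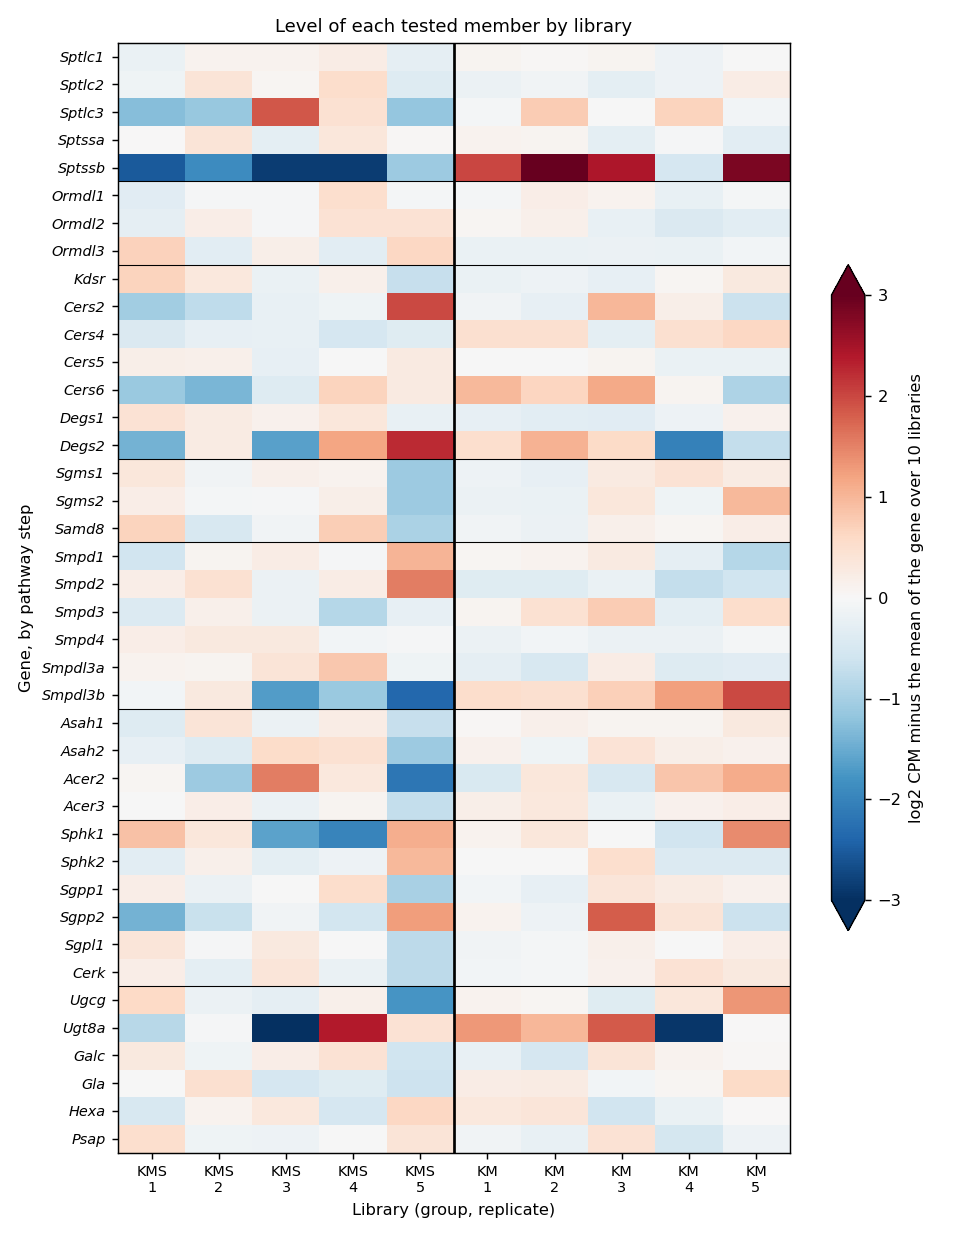
Log2 CPM of each tested member minus the mean of that gene over 10 libraries (colour, saturated beyond 3 units), with KMS libraries left and KM libraries right of the line and pathway steps separated by lines. KMS replicate 5 differs from the other KMS libraries in many rows, with high *Cers2*, *Degs2* and *Smpd2* and low *Acer2*, *Ugcg* and *Sgms2*, and *Sptssb* is the row in which the genotypes separate most.

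KMS replicate 5 carried many of the extremes described above. Without it, 41 members passed the filter, 9 had an unadjusted p under 0.05 (22.0%, against 17.0% of 16000 genes tested in the same way), and 0 were called by edgeR. DESeq2 without this library called 6 members, *Smpd2* higher in KMS and *Cers3*, *Cers4*, *Glb1*, *Smpdl3b* and *Sptssb* lower. At the unadjusted p of edgeR, those higher in KMS were then *Degs1*, *Smpd2*, *Smpd4* and *Smpdl3a*, and those lower were *Cers3*, *Cers4*, *Sgpp2*, *Smpdl3b* and *Sptssb*. The median log2 fold change of the members was then 0.05, equal to that of all tested genes at 2 decimals.

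Further genes of the pathway were read from a list of 37 genes of lipid transfer, gangliosides, sulfatides, S1P transport and receptors and base salvage. Of these 35 had a row and 34 were tested, 0 were called by edgeR and 1 by DESeq2, and the unadjusted p by edgeR was under 0.05 for 3 that were higher and 4 that were lower, where 10.8% of all tested genes were higher and 8.62% lower. Those higher were *Neu1*, a lysosomal sialidase, with a log2 fold change of 0.90 (SE 0.31), *Mfsd2b*, an exporter of sphingosine 1-phosphate from blood cells, with 1.68 (SE 0.62), and *Tecr*, a reductase that acts in very long chain fatty acid synthesis and base salvage, with 0.84 (SE 0.27). Adjusted p-values from edgeR for these 3 lay between 0.182 and 0.200. All KMS libraries stood above all KM libraries for *Tecr*, at 191 to 489 CPM in KMS and 141 to 177 CPM in KM, as they did for 1.84% of all tested genes. Those lower included *A4galt*, the globotriaosylceramide synthase, with -0.83 (SE 0.33), *Smpd5* with -1.27 (SE 0.54) and *S1pr3*, a receptor of sphingosine 1-phosphate, with -1.56 (SE 0.59).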

How the data were processed

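RNA of 5 KMS and 5 KM mice was sequenced as polyadenylated, directional libraries with paired reads. The authors aligned the reads to GRCm38 with HISAT2 and assigned them to genes with HTSeq. Whether strand was used is not given in any source read. The deposited counts are whole numbers, neither normalized nor pooled. The submitters' processing notes also name cutadapt 1.9.1, Trimmomatic 0.35, FastQC, StringTie and MACS2 2.1.1, without roles. The log2 fold changes and the p-values deposited by the authors come from their own comparison of the genotypes and were not used. All count columns were mapped to libraries by their labels, and 0 were left unmapped.

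All genes were fitted with edgeR 4.0.16 in R 4.3.3 (TMM factors, filterByExpr, quasi-likelihood test, no covariate), with Benjamini-Hochberg adjustment over the 15728 genes kept. Calls needed an adjusted p under 0.05 and a change of more than 1.5-fold either way. The SE of an edgeR log2 fold change was derived as its size over the square root of the quasi-likelihood F statistic. TMM factors also entered CPM, and log2 CPM had a prior count of 3. CPM per kilobase uses the union of GENCODE exons. Gene positions and promoters are from RefSeq (GRCm38.p6); 40 of the 43 members matched a promoter. DESeq2 1.42.0, limma 3.58.1 (voom with and without quality weights), the likelihood ratio test, RLE and upper-quartile factors, no filter or at least 10 counts in every library, RUVg with 1 factor, the Y-linked level as a covariate, the replicate number as a block and each library left out were the alternatives. DESeq2 with each library left out was added after seeing the data. The fits were also run on simulated counts with known changes. These counts held no outlying library and no imbalance of sex, and the outcome is not reported here.

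Members and lists were chosen with earlier results of these data known. Log2 fold changes are given for up to 3 tested members of lowest unadjusted p in each step and for *Sptlc1*, *Sptlc2*, *Sptlc3* and *Kdsr*; other genes so described are said to be named after their values had been seen. Values of some genes of the wider pathway are not reported here. Each library was taken as 1 mouse, from the number of mice that the paper gives. KM replicates 1 and 2 were the closest pair, with a Poisson chi-square per degree of freedom of 5.79. The next closest pair within a genotype, KM replicates 4 and 5, had 49.4. Differing beyond sampling noise does not show that 2 libraries came from separate mice, which was not tested, and both were kept.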

Additional observations from a re-analysis of the deposited data

Results flagged for a closer look

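In each genotype the CPM of the 40 tested members was searched for a library far from the other 4, judged by its gap to the nearest library over the range of the group. Of 80 groups of 5 libraries, 11 (13.8%) were marked. Chance marks about 1 in 20 only for independent, normally distributed values. CPM of genes in the same libraries need not be so, and an excess over chance was not measured. KMS replicate 5 accounted for 5 of the 11. It was high for *Cers2* (155 CPM, against at most 35.6 in the other KMS libraries), *Smpd2* (179 CPM, against at most 84.5), *Sphk2* (101 CPM, against at most 57.0) and *Sgpp2* (13.2 CPM, against at most 5.02), and low for *Sgms2* (67.5 CPM, against at least 139). KMS replicate 4 was high for *Ugt8a* (115 CPM, against at most 29.7). KM replicate 3 was high for *Smpdl3a* (410 CPM, against at most 290) and *Sgpp2* (19.8 CPM, against at most 7.15) and low for *Cers4* (14.5 CPM, against at least 24.6). KM replicate 5 was high for *Ugcg* (64.5 CPM, against at most 32.5) and *Ormdl3* (33.4 CPM, against at most 31.0).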

How the results depend on the processing

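The direction of *Sptssb*, *Cers4*, *Smpdl3b* and *Smpd2* was kept under all alternatives in which they were fitted. Over all genes 16 were called, and 25 with upper-quartile factors, 1072 by DESeq2, 33 by limma-voom, 660 with its quality weights, 602 by the likelihood ratio test, 4 with at least 10 counts in every library, 947 with RUVg, 7 with the Y-linked covariate and 9 to 42 with a library left out. In place of 0 members, 4 were called by DESeq2 (1 to 6 with a library left out, 1 without KM replicate 5, 2 without KM replicate 2 and 2 without KM replicate 4), 2 by voom with quality weights (*Cers4*, *Smpdl3a*), 2 by the likelihood ratio test (*Smpdl3b*, *Sptssb*), 2 with RUVg (*Smpd2*, *Sptssb*) and 0 to 1 with a library left out of edgeR. Members with an unadjusted p under 0.05 numbered 11 with quality weights (27.5%, against 24.8% of all tested genes), 7 with RUVg (17.5%, against 25.5%) and 4 to 9 with a library left out (9.76% to 22.0%, against 13.3% to 24%). Other pathway genes at that p numbered 14 with quality weights and 12 with RUVg, in place of 7. The median log2 fold change of the members was -0.12 with upper-quartile factors, where that of all tested genes was -0.09. The causes of these shifts were not tested, apart from the change of scale by the factors themselves.

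Of 629 alternative values for 30 genes, 572 kept sign and call, 10 kept the sign and became calls, and 47 changed sign without a call. With a library left out, the log2 fold change ranged from -0.058 to 0.084 for *Sptlc1*, -0.98 to 0.31 for *Sptlc3*, -0.11 to 0.12 for *Ormdl1*, -0.010 to 0.35 for *Kdsr*, -0.29 to 0.033 for *Sgms1*, -0.11 to 0.31 for *Samd8*, -0.35 to 0.033 for *Asah2*, -0.10 to 0.37 for *Sphk2*, -1.23 to 0.032 for *Sgpp2*, -0.63 to 0.63 for *Cers2*, -0.16 to 0.92 for *Degs2* and -1.30 to 0.22 for *Ugt8a*. Sign changes under upper-quartile factors were -0.043 for *Sptlc3*, -0.10 for *Ormdl1* and -0.041 for *Samd8*. Under limma-voom they were -0.63 for *Sptlc3*, -0.049 for *Samd8* and -0.089 for *Cers2*. With quality weights they were 0.058 for *Sptlc1*, -0.027 for *Sptlc3*, 0.18 for *Sgms1*, 0.12 for *Sgms2*, 0.16 for *Asah2*, -0.093 for *Sphk2*, -0.18 for *Cers2* and -0.60 for *Degs2*. With RUVg they were 0.0054 for *Sptlc1*, -0.072 for *Sptlc3* and -0.27 for *Cers2*. With the Y-linked covariate they were 0.067 for *Sptlc1*, -0.28 for *Sptlc3* and 1.17 for *Ugt8a*, and with at least 10 counts in every library -0.012 for *Ormdl1*.

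Deviations of same-numbered libraries from their genotype means correlated at -0.34, 0.14, -0.28, 0.12 and -0.44. The replicate numbers were not taken as pairs in the main fit, and these values cannot exclude a pairing. With the replicate block 2 genes and 0 members were called, the median of the members was -0.12, and signs changed for *Sptlc3* (-0.66), *Samd8* (-0.044) and *Cers2* (-0.19). Depth limits *Sptssb*, *Cers3*, *Smpd3*, *Sptlc3* and *Smpdl3b*, whose libraries include some under 15 reads. *Glb1* also had libraries under 15 reads, and an exon of *Tmppe* on the same strand overlaps 5.49% of its exon bases. Whether its low counts come from depth or from the assignment of reads was not tested.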
